A study of Mus musculus with 16 samples.

Results

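*St3gal5* and 7 other genes of ganglioside synthesis were examined in primary mammary tumors of mice with and without a *Resf1* gene trap. The 8 genes are *Ugcg*, *B4galt5*, *B4galt6*, *St3gal5*, *St8sia1*, *B4galnt1*, *B3galt4* and *St3gal2*. They were listed by name, in pathway order, and all 8 were found by symbol among the 23609 gene IDs of the deposited table. All 8 also passed the filter on low values (mean over the tumors at or above 10), as did 21034 IDs in all. The list was drawn up with the normalized values of the gene trap and wildtype tumors known, and all 8 genes are treated as selected on the difference between these groups. Their group differences are therefore given as a description, with no test.

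Tumors came from wildtype MMTV-PyMT animals and from littermates that carried MMTV-PyMT together with 1 trapped copy of *Resf1* (*Resf1* +/-). In both groups the polyoma middle T antigen is driven by the MMTV promoter, which is active in the mammary gland. The gene trap, kept on a C57BL/6 background and crossed to FVB/MMTV-PyMT animals, disrupts *Resf1* near its start by an inserted lentiviral cassette, which also makes the animals express EGFP joined to Cre. Per the labels no treatment was given, and the age of the animals with sequenced tumors is not given in the sources used here. The labels describe 8 tumors per group, of which 5 wildtype and 5 gene trap tumors could be matched to a column of values. That each tumor came from a separate animal is not stated, so the spread between tumors may be partly technical. Values are estimated read counts per gene that the authors had already scaled between tumors, and are called normalized values below. How deeply each tumor was sequenced is unknown.

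Gangliosides are glycolipids of the plasma membrane that carry sialic acid. They are built stepwise in the Golgi from ceramide, the lipid anchor, by enzymes that each add 1 sugar. UGCG adds glucose, B4GALT5 and B4GALT6 add galactose to make lactosylceramide, and ST3GAL5 adds the first sialic acid to make GM3, the parent of the main ganglioside series. ST8SIA1 extends GM3 to GD3, while B4GALNT1 turns GM3 into GM2 and GD3 into GD2. B3GALT4 then makes GM1 and GD1b, and ST3GAL2 can add an outer sialic acid to give GD1a and GT1b. GM3 is known to associate with growth factor receptors in the membrane, and GD2 and GD3 are studied as antigens of several tumor types, breast cancer among them.

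The promoters of *St3gal5* and *B3galt4* are shown because, apart from the sparsely measured *St8sia1*, these genes had the largest group differences of the set, in opposite directions. Sequences are from RefSeq on GRCm38.p6, from 250 bases before to 50 bases after the start of the gene, on the strand of the gene. *St3gal5* lies on the plus strand at chr6:72097358-72097657 and *B3galt4* on the minus strand at chr17:33951439-33951738. The capitals mark the GC box GGGCGG on either strand, a motif known to bind SP1-family factors.
St3gal5: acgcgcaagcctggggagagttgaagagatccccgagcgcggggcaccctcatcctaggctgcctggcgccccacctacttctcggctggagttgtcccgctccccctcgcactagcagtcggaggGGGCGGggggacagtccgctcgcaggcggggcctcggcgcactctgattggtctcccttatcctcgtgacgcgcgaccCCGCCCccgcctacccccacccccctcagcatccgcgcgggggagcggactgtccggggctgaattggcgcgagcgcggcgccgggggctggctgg
B3galt4: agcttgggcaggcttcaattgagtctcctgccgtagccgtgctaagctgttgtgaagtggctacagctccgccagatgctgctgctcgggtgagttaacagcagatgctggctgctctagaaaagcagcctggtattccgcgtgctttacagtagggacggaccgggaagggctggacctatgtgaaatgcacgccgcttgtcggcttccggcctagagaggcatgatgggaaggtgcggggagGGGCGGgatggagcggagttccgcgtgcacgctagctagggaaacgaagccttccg

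The *St3gal5* promoter had 2 GC boxes, 33 CpG dinucleotides and a GC content of 72.7%. The *B3galt4* promoter had 1 GC box, 20 CpG dinucleotides and a GC content of 59.7%. A GC box was present in 35.7% of the 32851 promoters of the same length, whose median was 7 CpG dinucleotides and 52.7% GC. Promoters of *Ugcg*, *B4galt5* and *St8sia1* were matched as well, with 2, 7 and 1 GC boxes, respectively. All 5 matched promoters held the motif, and none was matched for *B4galt6*, *B4galnt1* and *St3gal2*. Whether the motif has a part in the group differences was not tested.

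*Resf1* itself, the trapped gene, averaged 4099 ± 400 (SD, n = 5) in the wildtype and 3516 ± 361 (SD, n = 5) with the gene trap, a log2 fold change of -0.22 (standard error 0.09), and the groups overlapped. In limma its unadjusted p was 0.0313 and its adjusted p 0.9997, so the trapped gene itself did not pass the adjusted test. Of the gene trap tumors, 3 had less *Resf1* than any wildtype tumor. The paper reports reduced *Resf1* mRNA in gene trap tumors by qRT-PCR. Across all 21034 tested genes, limma with Benjamini-Hochberg adjustment called 0 (0%) at an adjusted p under 0.05, with 479 (2.28%) at an unadjusted p under 0.05. The labelled tissue was checked against markers of mammary epithelium. All 8 luminal epithelial markers were measured, with summed values of 87309 to 114398 in wildtype and 90458 to 119117 in gene trap tumors. On the first principal component of all tested genes, gene trap replicate 2 scored 91.8 and the other 9 tumors -18.6 to -4.78.

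*St3gal5* (ENSMUSG00000056091), the GM3 synthase, was lower in every gene trap tumor than in any wildtype tumor. Its normalized value was 793, 643, 747, 690 and 600 in wildtype replicates 1 to 5. In gene trap replicates 1 to 5 it was 552, 548, 562, 559 and 567. The wildtype tumors lay between 600 and 793, and the gene trap tumors lay close together just below the lowest of them. The means were 694 ± 77.5 (SD, n = 5) and 558 ± 7.92 (SD, n = 5), respectively, for a log2 fold change of -0.31 (standard error 0.09), or a level 19.3% lower in gene trap tumors. Of all tested genes, 55 (0.261%) had all gene trap tumors below all wildtype tumors, and 56 (0.266%) had the reverse. These shares stand beside the value of *St3gal5* for scale only, because *St3gal5* was chosen with this contrast known. In bulk tumors, fewer cells that express a gene and less RNA per cell cannot be told apart.

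**Figure D1:**
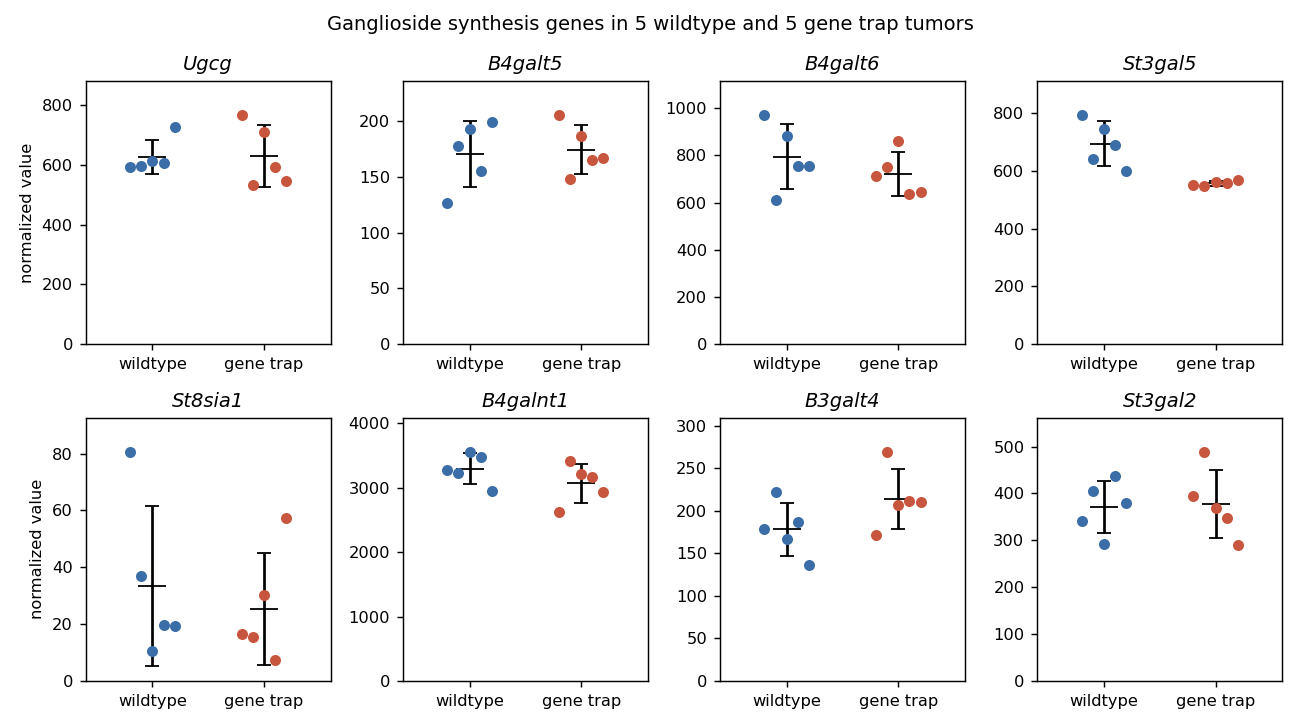
Normalized value (vertical axes, starting at 0) of each of the 8 genes in the 5 wildtype and 5 gene trap tumors, with points for tumors and lines for the mean ± SD. *St3gal5* is the only panel without overlap, with 600 to 793 in wildtype and 548 to 567 in gene trap tumors.

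Markers of basal and myoepithelial cells moved the same way between the groups. The 7 of 7 markers measured (*Krt5*, *Krt14*, *Acta2*, *Myh11*, *Trp63*, *Oxtr* and *Cnn1*) had a median log2 fold change of -0.36. All 7 were negative, as were 48.6% of all tested genes. The summed value of the 7 markers was 6417 to 9420 in wildtype and 5069 to 6923 in gene trap tumors. By limma 0 of 7 passed at an adjusted p of 0.05 and 1 at an unadjusted p of 0.05, beside 0% and 2.28% of all tested genes. Within the groups, the mean log2 value of these markers and that of *St3gal5* had a Pearson's r of -0.248 (exact permutation within groups, p = 0.573, adjusted p = 0.836 over 80 relations). Spearman's rho was -0.43 (exact permutation, p = 0.275, adjusted p = 0.663), and r was -0.692 without the 2 tumors farthest in *St3gal5*. These values rest almost wholly on the 5 wildtype tumors, since *St3gal5* hardly varied between gene trap tumors. With 1 tumor left out at a time r stayed negative, from -0.493 to -0.0253, but the test did not tell it apart from 0. Most other marker lists had a negative median too, with -0.56 for adipocytes, while those of fibroblasts, skeletal muscle and the single B cell marker were positive. Of all the marker lists, skeletal muscle had the strongest r with *St3gal5* within groups, -0.772 (exact permutation, p = 0.0759, adjusted p = 0.476). Without the 2 tumors farthest in *St3gal5* that r was 0.134. The part of basal and myoepithelial cells in the group difference of *St3gal5* was not tested.

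The spread of *St3gal5* between tumors of a group is given next, as a description with no test. The shares of genes beside it are for scale only, because *St3gal5* was chosen with the values of these tumors known. The SD of its log2 values was 0.161 in wildtype tumors, where 38.2% of tested genes had a smaller SD. In gene trap tumors the SD was 0.020, and 0.0285% of tested genes had a smaller one. Among the 3227 genes with a mean value within 1.5 fold of *St3gal5*, the corresponding shares were 56.1% and 0.093%. The wildtype SD was 7.88 times the gene trap SD, and 0.0618% of tested genes had a higher ratio. Over all tested genes the median SD was 0.206 in wildtype and 0.248 in gene trap tumors, so the difference in *St3gal5* ran against that of the table. Gene trap replicate 2, which stood apart on the first principal component, is part of this median, and the median without it was not computed. For the other 7 genes of the pathway the ratio of wildtype to gene trap SD lay between 0.53 for *Ugcg* and 1.5 for *B4galt5*.

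**Figure D2:**
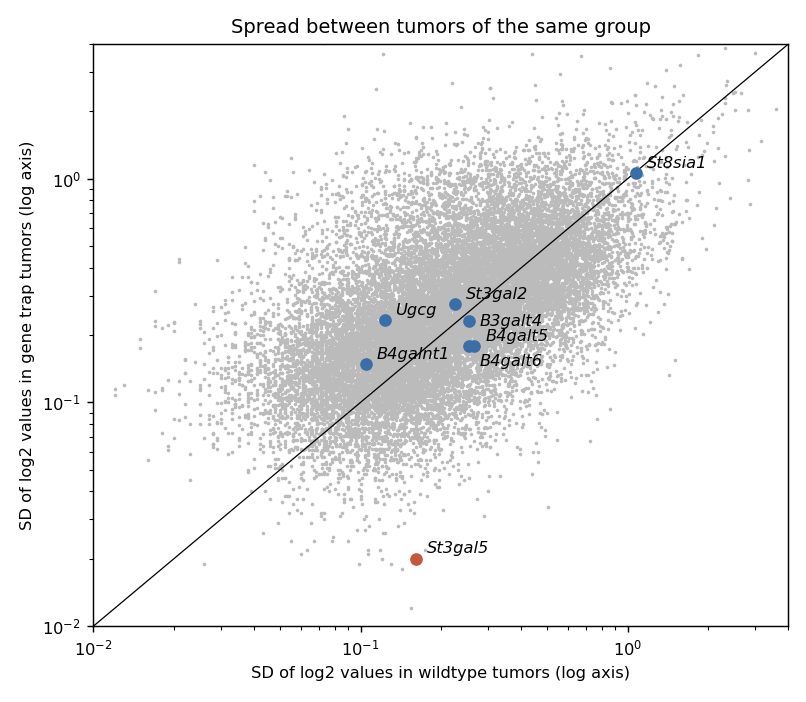
SD of log2 values in wildtype (horizontal) and gene trap tumors (vertical), both on log axes, for all tested genes (grey) and the 8 members (blue, with *St3gal5* in red). The line marks equal spread, and *St3gal5* lies far below it at 0.161 and 0.020, while *St8sia1* has the largest spread of the members in both groups.

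The 5 tested protein-coding genes on each side of *St3gal5* on chromosome 6 had log2 fold changes between -0.08 (*Ptcd3*) and 0.43 (*Reep1*). The nearest were *Polr1a*, a subunit of RNA polymerase I, at 0.02 (standard error 0.07) and *Usp39* at -0.04 (standard error 0.09). *Resf1* is on chromosome 6 too, with 439 tested protein-coding genes between it and *St3gal5*. Over the 1086 tested genes of this chromosome the median log2 fold change was -0.005, against 0.005 over all tested genes. The gene models *Gm29438*, on the same strand, and *4933431G14Rik*, on the opposite strand, overlap *St3gal5* in the annotation. Their values were 37.4 to 83 and 25.9 to 53.4 over the 10 tumors, with group differences of 0.12 and 0.20 on the log2 scale. Whether strand was used in counting is not given in the sources used here, so reads of overlapping genes may not be fully separated.

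The enzymes that act before *St3gal5* all had overlapping groups. *Ugcg*, whose product starts all glucosylceramide-based lipids, was at 592, 597, 612, 608 and 728 in wildtype replicates 1 to 5. It was at 766, 533, 711, 594 and 545 in gene trap replicates 1 to 5. Gene trap tumors lay on both sides of the wildtype range, and the means were close, at 627 ± 56.7 (SD, n = 5) and 630 ± 104 (SD, n = 5). The log2 fold change was -0.005 (standard error 0.12), and 0.05 without gene trap replicate 2. *B4galt6*, a lactosylceramide synthase, was at 969, 610, 881, 755 and 754 in wildtype tumors and at 712, 749, 861, 635 and 644 in gene trap tumors, in order of replicate. All 5 gene trap tumors lay within the wildtype range, and the log2 fold change was -0.13 (standard error 0.13). *B4galt5*, the other lactosylceramide synthase, ranged from 127 to 200 in wildtype and from 148 to 205 in gene trap tumors, a difference on the log2 scale of 0.04 (standard error 0.15).

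Of the enzymes that act after GM3, *B3galt4* had the only log2 fold change above 0.2. *B3galt4*, which makes GM1 and GD1b, was at 179, 223, 167, 187 and 137 in wildtype replicates 1 to 5. In gene trap replicates 1 to 5 it was at 171, 269, 207, 211 and 211. Of the gene trap tumors 1 lay above the highest wildtype tumor and 4 lay within the wildtype range. The log2 fold change was 0.26 (standard error 0.16), or a level 20% higher, with overlapping groups. It was 0.18 without gene trap replicate 2, the highest tumor, and 0.17 without wildtype replicate 5, the lowest. *B4galnt1*, the GM2 and GD2 synthase, was at 3274, 3233, 3553, 3476 and 2952 in wildtype and at 2617, 3421, 3209, 3160 and 2928 in gene trap tumors. Here 2 gene trap tumors lay below the wildtype range and none above it, and the log2 fold change was -0.11 (standard error 0.08). *Slc26a10* overlaps it on the opposite strand at 104 to 160. *St3gal2*, which makes GD1a and GT1b, ranged from 293 to 437 in wildtype and from 289 to 488 in gene trap tumors, a difference on the log2 scale of 0.02 (standard error 0.15) that turned to -0.08 without gene trap replicate 2.

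**Figure D3:**
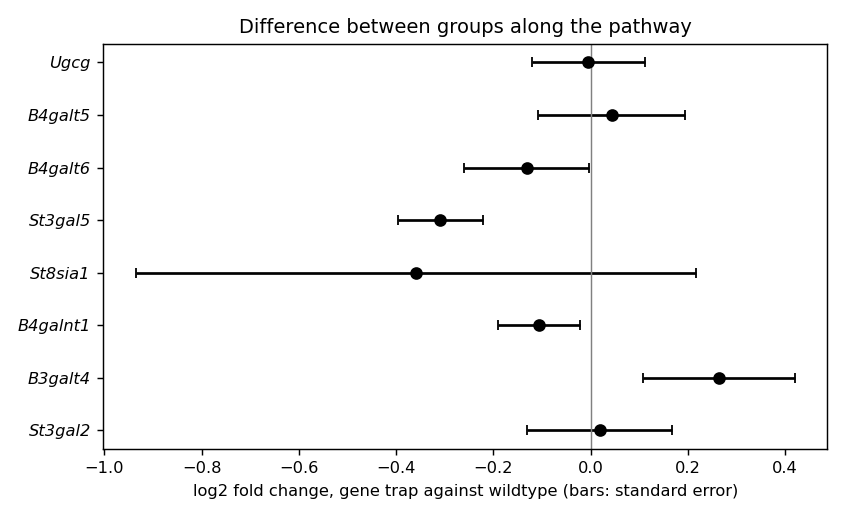
Log2 fold change of gene trap against wildtype tumors (horizontal axis) for the 8 genes in pathway order, with bars for the standard error from limma. *St3gal5* is at -0.31 and *B3galt4* at 0.26, and *St8sia1* at -0.36 carries the widest bar, 0.57.

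*St8sia1*, the GD3 synthase, had the lowest values and varied most. It was at 80.6, 37, 10.4, 19.6 and 19.5 in wildtype replicates 1 to 5 and at 16.4, 15.3, 30.3, 7.33 and 57.3 in gene trap replicates 1 to 5. The highest tumor was 11 times the lowest, and each group had low and high tumors. Its log2 fold change of -0.36 (standard error 0.57) was therefore smaller than its error, and it turned to 0.04 without wildtype replicate 1. *St8sia1* is on chromosome 6 with 34 tested protein-coding genes between it and *Resf1*, closer than *St3gal5*. Its 10 tested coding neighbors had log2 fold changes between -0.11 and 0.14. The nearest on 1 side is *Cmas*, the enzyme that makes the activated sialic acid used by all sialyltransferases, at -0.04 (standard error 0.09).

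Per kilobase of exon sequence, the levels of the 8 genes lay far apart. In wildtype tumors *B4galnt1* was highest, at 955 ± 68.1 (SD, n = 5) normalized reads per kilobase. *St3gal5* was next at 265 ± 29.6. It was followed by *B4galt6* (137 ± 23.6), *Ugcg* (120 ± 10.9), *B3galt4* (113 ± 19.7), *St3gal2* (73.6 ± 11.1) and *B4galt5* (39.5 ± 6.94), with *St8sia1* last (3.58 ± 3.0). *B4galt6*, *Ugcg* and *B3galt4* did not differ beyond their spread, while the ranges of *B4galnt1* (855 to 1029), *St3gal5* (229 to 303), *B4galt5* (29.4 to 46.3) and *St8sia1* (1.12 to 8.62) overlapped with no other member. In gene trap tumors *B4galnt1* was at 888 ± 88.8 (SD, n = 5), *St3gal5* at 213 ± 3.02 and *B3galt4* at 135 ± 22.3, and *St8sia1* was again last at 2.71 ± 2.11. The tumors of both groups thus held far more RNA for the enzyme that leads from GM3 to GM2 than for the one that leads to GD3. With the length of the longest transcript in place of the union of exons, *Ugcg* and *B4galt6* changed places in wildtype tumors.

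Whether the members varied together between tumors was tested within the groups, which leaves out the difference between genotypes. Over the 28 pairs, 13 correlations were positive and 0 had an adjusted p under 0.05 for Pearson's r, with 3 at an unadjusted p under 0.05 (exact permutation of the tumors within each group, two-sided). *Ugcg* and *B3galt4* had the strongest, with r = -0.767 (exact permutation, p = 0.00181, adjusted p = 0.0506) and rho = -0.758 (p = 0.00819, adjusted p = 0.104). Without the 2 tumors farthest in *Ugcg*, r was -0.454, and without gene trap replicate 2 it was -0.685. *Ugcg* and *B4galt5*, which act in succession, had r = 0.699 (exact permutation, p = 0.0142, adjusted p = 0.199) and rho = 0.83 (p = 0.00118, adjusted p = 0.0331). Without the 2 farthest tumors this r was 0.474. For *St3gal5* no pair had an unadjusted p under 0.05 for r, and 1 had for rho, with *St3gal2* (rho = -0.758, exact permutation, p = 0.0192, adjusted p = 0.134, and r = -0.448). Its r was 0.624 with *B4galt6*, -0.545 with *B4galt5*, -0.334 with *Ugcg*, 0.37 with *B4galnt1*, 0.266 with *St8sia1* and 0.129 with *B3galt4*. The r values of *St3gal5* rest almost wholly on the 5 wildtype tumors, since it hardly varied between gene trap tumors. With 1 tumor left out, r ranged from -0.784 to -0.123 with *B4galt5* and from -0.492 to 0.417 with *B3galt4*.

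Marker genes of 10 cell types were compared with the members in the same way, which gave 80 relations. *B4galt6* and the T cell markers were the only pair with an adjusted p under 0.05. The T cell list had 6 of 6 markers in the table (*Cd3e*, *Cd3d*, *Cd3g*, *Cd8a*, *Cd4* and *Lck*), all at low values, with sums of 140 to 352 in wildtype and 141 to 527 in gene trap tumors. *Cd3d* did not pass the filter on low values but counts in the marker mean, and *Cd3e* averaged 12.3 over the tumors. Wildtype replicate 1 had both the highest *B4galt6* and the most T cell marker RNA of its group, and gene trap replicate 3 had both in its own. Within groups r was 0.86 (exact permutation, p = 0.000556, adjusted p = 0.0444) and rho was 0.867 (p = 0.00215, adjusted p = 0.172). With 1 tumor removed at a time, r stayed between 0.836 (without wildtype replicate 1) and 0.934, and without the 2 tumors farthest in *B4galt6* it was 0.864. T cell RNA was low in all tumors and which cells express *B4galt6* was not tested. By rho this relation did not pass after adjustment. For the other 7 genes, the smallest unadjusted p was 0.005 for *St8sia1* and the adipocyte markers (exact permutation, r = -0.843, adjusted p = 0.2), of which 2 of 5 were in the table. Between the genotypes, the median log2 fold change was -0.03 for luminal epithelial markers (3 positive, 5 negative) and 0.10 for fibroblasts (6 of 6 positive). For the remaining marker lists it was -0.10 for endothelial cells, -0.06 for macrophages, -0.14 for T cells (5 markers tested), -0.56 for adipocytes, 0.05 for skeletal muscle and -0.01 for Schwann cells and nerve. A single B cell marker, *Cd79b*, was measured, at 0.11.

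**Figure D4:**
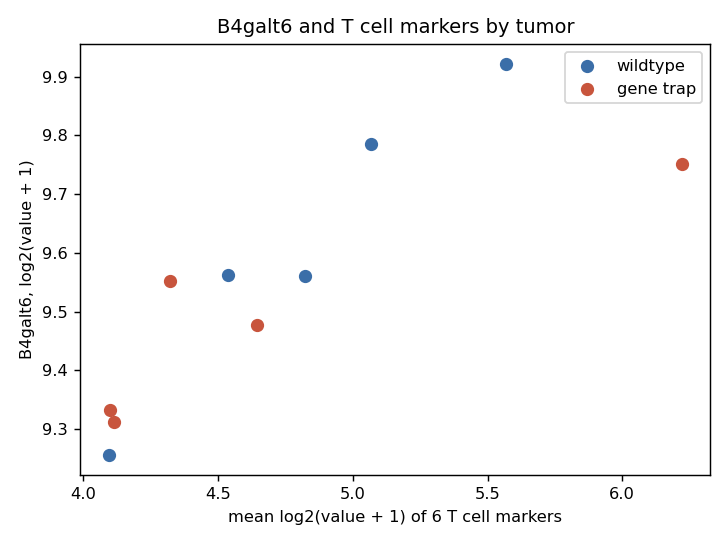
*B4galt6* (vertical axis, log2 of the normalized value plus 1) against the mean log2 value of 6 T cell markers (horizontal axis) in the 5 wildtype (blue) and 5 gene trap (red) tumors. Within groups the correlation was 0.86, with gene trap replicate 3 at the far right.

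Genes around ganglioside synthesis were examined through 7 lists, from ceramide to breakdown, with 66 genes. Of these 58 were in the table, under 59 IDs that were all tested. In limma's test, 0 of the 59 had an adjusted p under 0.05 in either direction, beside 0% of all tested genes. At an unadjusted p under 0.05, 3 were higher and 1 was lower in gene trap tumors, where 1.32% of all tested genes were higher and 0.956% lower. Together these are 6.78% of the list IDs, beside 2.28% of all tested genes. Both IDs named *St6galnac2* are among the 3 higher, so this gene is counted more than once. Over the alternative fits, 1 to 6 list IDs fell under this p. The lists were chosen with earlier results of these data known, so the share is a description. All 59 had overlapping groups, where 0.528% of all tested genes did not, a share at which lists of this size may hold none. Since no gene of the whole table passed the adjusted test, no list could hold one that did.

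Enzymes that compete for lactosylceramide and ceramide were listed first, with 3 of 5 positive. *A4galt*, which takes lactosylceramide into the globo series in place of GM3, was at 215, 192, 336, 238 and 345 in wildtype replicates 1 to 5. In gene trap replicates 1 to 5 it was at 191, 210, 209, 158 and 178. Of the wildtype tumors 4 lay above all gene trap tumors and replicate 2 lay among them, and the log2 fold change was -0.45 (standard error 0.18, limma adjusted p = 0.9997, unadjusted p = 0.0244). *B3galnt1*, the next enzyme of the globo series, was at 0.04 (standard error 0.22). *Sgms1*, which uses ceramide for sphingomyelin, was at -0.07 (standard error 0.08), and *Ugt8a*, which makes galactosylceramide, at 0.03 (standard error 0.17).

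For the supply of ceramide, 13 of 15 genes were tested, with 5 positive, 8 negative and a median log2 fold change of -0.01. The ends of this list were *Cers6*, a ceramide synthase, at 0.17 (standard error 0.15) and *Degs2* at -0.31 (standard error 0.23). For the supply of activated sialic acid all 6 genes were tested, with 4 positive and a median of 0.04. *Gne*, the enzyme that starts sialic acid synthesis, was at 5098 ± 417 (SD, n = 5) in wildtype and 6071 ± 1081 (SD, n = 5) with the gene trap, or 0.24 on the log2 scale (standard error 0.11, limma adjusted p = 0.9997, unadjusted p = 0.0495). Its groups overlapped, and gene trap replicate 4 was the highest at 7918. *Slc35a1*, which carries activated sialic acid into the Golgi, was at 0.02 (standard error 0.08). The list of glucosylceramide transfer and sugar supply lay between -0.07 (*Ugp2*) and 0.08 (*Slc35a2*).

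Later ganglioside sialyltransferases had a median log2 fold change of -0.17 over 6 tested genes, with 2 positive and 4 negative. *St8sia5* was lowest at -0.38 (standard error 0.32), *St6galnac4* highest at 0.10 (standard error 0.15), and *St3gal1* stood at 0.01 (standard error 0.11). Values of *St8sia5* were low, with a mean of 48.8 over the tumors. So were those of *St6galnac3* (mean 28.6, -0.346, standard error 0.296) and *St6galnac5* (mean 28.3, -0.225, standard error 0.292). The other negative gene, *St6galnac6*, had a mean of 2174 and was at -0.108 (standard error 0.126). Other sialyltransferases, which act mainly on glycoproteins, had a median of 0.33 over 9 IDs, with 6 positive and 3 negative. With *St6galnac2*, which has 2 IDs, counted once, the median over 8 genes was 0.18. Both IDs named *St6galnac2* had an unadjusted p under 0.05. The first (ENSMUSG00000057286) was at 1367 ± 249 (SD, n = 5) in wildtype and 1890 ± 357 (SD, n = 5) in gene trap tumors, which is 0.46 on the log2 scale (standard error 0.15, limma adjusted p = 0.9997, unadjusted p = 0.011). The second (ENSMUSG00000110170) was far lower, at 60.4 ± 12.1 (SD, n = 5) and 82.4 ± 14.2 (SD, n = 5), and the counting may have split reads between them. *St6galnac1* had the largest value of this list, 0.81 (standard error 0.45), at a mean of under 20 in both groups.

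Genes that break glycosphingolipids down had 15 of 16 members tested, with 5 positive, 10 negative and a median log2 fold change of -0.07. The lowest was *Neu2*, a sialidase, at -0.16 (standard error 0.23). *Neu3*, the sialidase of the plasma membrane, was at -0.12 (standard error 0.20). *Gm2a* and *Hexa*, which take part in the breakdown of GM2, were at -0.07 (standard error 0.10) and -0.07 (standard error 0.10).

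**Figure D5:**
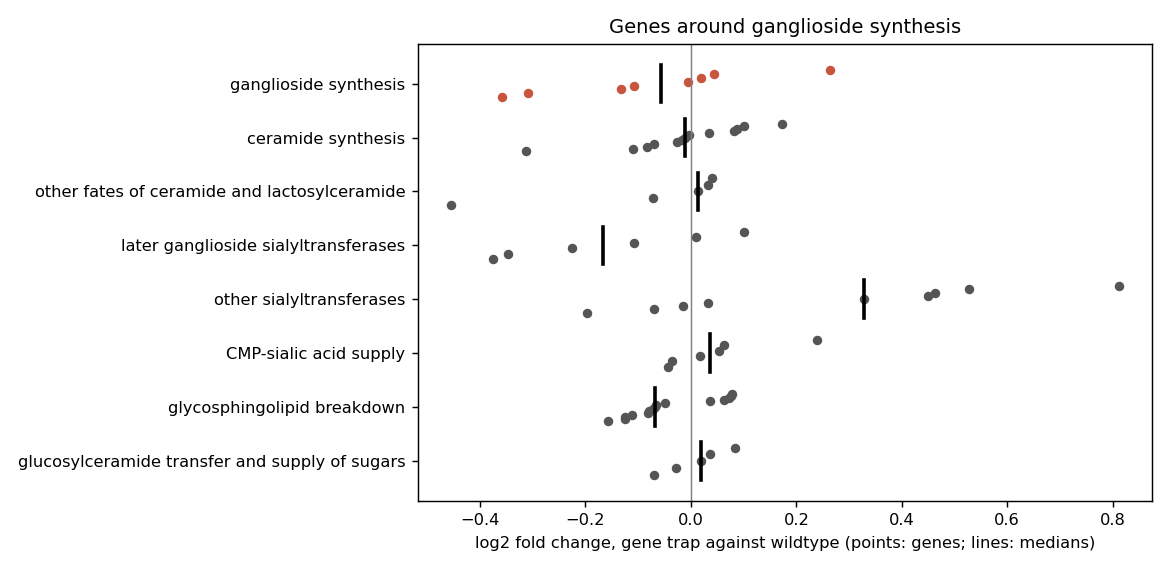
Log2 fold change of gene trap against wildtype tumors (horizontal axis) for the 8 ganglioside synthesis genes (red) and the tested genes of the 7 surrounding lists (grey), with a vertical line at the median of each list. Breakdown genes lie close together around a median of -0.07. Sialyltransferases range from -0.38 (*St8sia5*) to 0.81 (*St6galnac1*), both genes of low values, with standard errors of 0.32 and 0.45.

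The genes whose values followed *St3gal5* most closely were sought among 13997 genes with a symbol and a mean of 100 or more. Across all 10 tumors the highest Pearson's r were those of *Stxbp6* (0.90), *Pskh1* (0.88), *Bbs2* (0.88), *Zbtb38* (0.87) and *Wif1* (0.86). Among the lowest were those of *Smn1* (-0.85), *Gm44949* (-0.82), *Gxylt1* (-0.82) and *Tchp* (-0.81). These r across all tumors include the difference between the groups, on which *St3gal5* was chosen. With each group centred on its mean, *Stxbp6* was again highest (0.95), followed by *Chrm3*, *Gm5454*, *Tmem98* and *Rtn3* (0.92 to 0.94). *Csn1s1*, a casein gene of milk, was lowest (-0.94), followed by *Cryab*, *Ptges*, *Gm4742* and *Tgfb2* (-0.92 to -0.88). In wildtype tumors *Csn1s1* was at 230 in replicate 1, where *St3gal5* was highest, and at 3473 in replicate 5, where it was lowest. Because *St3gal5* hardly varied between gene trap tumors, the centred values rest almost wholly on the 5 wildtype tumors. All these correlations come from the same 10 libraries and are the extremes of a long ranking, and they are given as a description.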

How the data were processed

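Mouse mammary tumors were profiled by stranded total RNA sequencing. The authors deposited one table of gene-level read counts scaled between tumors, a signal in fractional values rather than whole reads. Per the labels, the submitters' processing notes name Partek, STAR (version 2.7.8a), DESeq2 and the genome build mm39. The annotation and counter are not given in the sources used here. The matched columns held 0 zeros and summed to between 31995078 and 42153593, and depth could not be recovered. Of 16 value columns, 10 were matched to a tumor by name (Con and Hypo with the replicate number), and 6 that matched no label were not used.

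Symbols were found for 22899 (97%) of the IDs. GENCODE M21 (GRCm38) gave exon lengths and gene order. The log2 of each value plus 1 was taken, and limma (R 4.3.3, limma version 3.58.1) was applied to genes whose mean reached 10, with a mean-variance trend, 2 groups and Benjamini-Hochberg adjustment. Fold changes of low genes come out too small on this log2(value + 1) scale. Correlations used log2 values centred per group, with all 14400 arrangements of tumors within groups. The calculations were tested on simulated data. Figures were drawn with matplotlib (version 3.10.9).

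The members and lists were chosen with earlier results of these data known. Named genes were the 8 members, *Resf1*, preset branch genes, the ends of each list, and the 5 highest and 5 lowest correlations with *St3gal5*. Some genes that this rule covers are not reported here. *St6galnac2*, *St3gal6* and other lone tumors, *Cd79b*, neighboring and overlapping genes and those most like *St8sia1* fall outside this rule and were chosen after their values were seen. Alternatives were other pseudocounts and filters, quantile normalization, no trend, a replicate block and each tumor left out.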

Additional observations from a re-analysis of the deposited data

Results flagged for a closer look

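In the 68 gene IDs of the 8 members, the 7 surrounding lists and *Resf1*, each examined in both groups of 5 tumors (136 groups), a lone tumor stood apart 9 times, and chance alone gives about 6.8 (1 in 20 groups). The widest gap was in *St3gal6*, another sialyltransferase, with 394 in gene trap replicate 1 where the rest of that group had 86.1 to 101. The same tumor was alone for *St6galnac5*, with 47.3 where the rest had 18.6 to 24.1. For *Ugcg* it was wildtype replicate 5, with 728 where the rest of that group had 592 to 612. Gene trap replicate 5 was alone for *Neu3*, with 72 where the rest had 48.1 to 54.7, and for *St6galnac1*, with 34.95 where the rest had 6.47 to 13.7. In ceramide synthesis, *Kdsr* was at 1688 in gene trap replicate 2 (rest 1065 to 1162), *Sptlc3* at 145 in wildtype replicate 3 (rest 103 to 113), and *Sptlc1* at 1683 in gene trap replicate 3, a low value (rest 1894 to 1979). In breakdown, *Arsa* was at 485 in wildtype replicate 3 (rest 375 to 406).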

How the results depend on the processing

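The log2 fold change of *St3gal5* lay between -0.36 without wildtype replicate 5 and -0.26 without wildtype replicate 1 over 17 alternative fits, a description of the values on which the gene was chosen. Its groups did not overlap under quantile normalization either, and the other alternatives could not make them overlap. Single tumors moved the other members by more than 1.5 times. *B4galt6* was at -0.06 without wildtype replicate 1 and at -0.22 without wildtype replicate 2, *B4galnt1* at -0.05 without gene trap replicate 1, and *B3galt4* at 0.17 without wildtype replicate 5, all with the sign kept. *Ugcg* (-0.08 to 0.05), *B4galt5* (-0.06 to 0.10), *St3gal2* (-0.08 to 0.11) and *St8sia1* (-0.72 to 0.04, in 16 fits, since its mean fell under 50) changed sign. No alternative gave a gene with an adjusted p under 0.05, in the table or in the 7 lists, with 308 to 692 genes and 1 to 6 list genes at an unadjusted p under 0.05. With the replicate number as a block *St3gal5* was at -0.31, with 0 genes called. Tumors of the same number deviated from their group means with correlations of -0.156 to 0.149, and the numbers were not taken as pairs. Of the 10 genes most like *St3gal5*, 1 was among the 10 after centring per group, which takes out the difference between the groups. Without gene trap replicate 2 this number was 4, and by Spearman's correlation it was 2. The ranking thus depends on these choices, and the cause was not tested. The check of members and markers without gene trap replicate 2, the other length, the count of *St6galnac2* once and the genes most like *St8sia1* were chosen after seeing the data. Because the depth is unknown, the counting error of low genes such as *St8sia1* cannot be given.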

Other observations

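*St8sia1* varied 11 fold between tumors, and the genes that followed it most closely within groups were examined after this was seen. Among the ranked genes, the 5 with the highest correlation on group-centred log2 values were *4933427D14Rik* (0.97), *Camk2b* (0.93), *Ttc19* (0.92), *9030025P20Rik* (0.92) and *A530017D24Rik* (0.89). Of these, 4 of 5 are on chromosome 11, where 7.76% of the ranked genes are, while *St8sia1* is on chromosome 6. Without wildtype replicate 1, the tumor with the highest *St8sia1*, the 5 highest were *Stx8*, *4933427D14Rik*, *Mir22hg*, *Camk2b* and *Ttc19* (0.90 to 0.97), all 5 on chromosome 11. *Camk2b* was at 151 and *Ttc19* at 1120 in wildtype replicate 1, against 82.8 and 905 in wildtype replicate 3, where *St8sia1* was lowest of its group. In gene trap tumors *Camk2b* was highest, at 218, in replicate 5, as was *St8sia1*, and lowest, at 99.9, in replicate 4, again as was *St8sia1*. These are the extremes of a ranking of 13998 genes over 10 tumors and are given as a description.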
